A study of Mus musculus with 7 samples.

Results

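The 10 genes described here are listed as identity genes of the alveolar type 1 cell of the lung: Ager, Pdpn, Hopx, Clic5, Rtkn2, Akap5, Cav1, Lmo7, Gprc5a and Sema3e. They were chosen by name, with earlier results of these data known, and were looked up by gene symbol in every library. All 10 were found among the 21121 genes listed, each on 1 row, and all 10 were among the 12964 genes with enough reads to be tested. The cells came from lungs of C57BL/6 mice at 5 stages, with no treatment or engineered allele named. There is 1 library each from embryonic day 13.5 (E13.5), from E15.5 and from day 14 after birth (P14), and there are 2 each from E18.5 and P56. Living cells were sorted for the epithelial surface protein Epcam and against CD31, CD45, Ter119 and CD146, which mark vessel and blood cells. The sort took epithelial cells as a whole and did not separate type 1 cells from other epithelial types. RNA was read by 3' SAGE sequencing, which counts 1 short tag per transcript, close to its 3' end. Neither the sex of the mice nor the number of animals per library is stated in the labels.

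Type 1 cells are the broad, thin cells that form most of the gas exchange surface of the alveolus. They arise in the fetal lung from distal epithelial progenitors, alongside the cuboidal type 2 cells, which make surfactant. The genes that mark them encode surface receptors, caveola and cortical cytoskeleton proteins, signalling scaffolds and a small number of regulators. Type 1 cells are also known for being fragile and hard to recover when lung tissue is taken apart.

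Depth ran from 2559927 to 3895740 reads per library, and 1 read was worth 0.236 to 0.385 of the scaled tag counts in which all levels below are given. The counting error of a gene with few reads is therefore large, and reads are stated where a level rests on 25 or fewer. Epcam lay between 55.8 and 213.1 in the 7 libraries. The genes of 2 sorted-out proteins, Pecam1 for CD31 and Ptprc for CD45, had 0 to 4 reads in each. Changes between stages are log2 differences of the value plus a pseudocount of 1, from 1 limma-trend fit over all 7 libraries with 2 residual degrees of freedom. A gene was called changed at a Benjamini-Hochberg adjusted p under 0.05 over all 12964 genes. The labels do not say whether replicate libraries came from separate animals, so the p-values measure only the spread between these samples. Where a stage has 1 library, its spread was taken to be that of E18.5 and P56. The measurement is made on a mixed population, so fewer type 1 cells and less of a transcript per cell cannot be told apart.

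All 10 genes are protein-coding and lie apart from each other on mouse build GRCm38 (mm10), by the GENCODE vM21 annotation. Ager spans 34597862 to 34600936 on the plus strand of chromosome 17, and Clic5 spans 44188584 to 44280172 on the same chromosome and strand. Cav1 lies at 17306335 to 17341452 and Gprc5a at 135065651 to 135084709, both on the plus strand of chromosome 6. Hopx lies at 77086988 to 77115121 on the minus strand of chromosome 5, and Sema3e at 14025276 to 14256689 on its plus strand. Pdpn lies on chromosome 4 at 143267431 to 143299564, minus strand. Rtkn2 lies on chromosome 10 at 67979570 to 68059740, plus strand. Akap5 lies on chromosome 12 at 76324891 to 76334153, plus strand. Lmo7 lies on chromosome 14 at 101729957 to 101934710, plus strand. Hopx, Rtkn2, Cav1 and Sema3e overlap annotated antisense transcripts, and for Cav1 the overlap, with Gm15581, includes the annotated 3' end, where the tags lie. The sources used here do not say whether tags were counted by strand, so reads of Cav1 and of Gm15581 cannot be told apart.

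RefSeq promoter sequences were found for 8 of the 10 genes. The 3 shown here belong to the genes that differ most in their course before birth, with Clic5 going from 4 reads at E13.5 to 927 at E15.5, Pdpn having the smallest rise that was called and Sema3e none. Each is the 250 bases before the annotated start on GRCm38.p6, read 5′ to 3′ along the gene, at chr17:44188322-44188571 (plus strand), chr4:143299565-143299814 (minus strand) and chr5:14025026-14025275 (plus strand), in that order. The capitals in the Pdpn sequence mark the letters TGTTTAC, a core sequence of forkhead factors.
Clic5: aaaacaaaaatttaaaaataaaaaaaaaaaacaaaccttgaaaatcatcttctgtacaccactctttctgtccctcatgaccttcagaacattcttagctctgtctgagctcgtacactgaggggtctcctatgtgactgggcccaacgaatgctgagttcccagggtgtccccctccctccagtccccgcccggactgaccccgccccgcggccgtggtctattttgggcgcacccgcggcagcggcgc
Pdpn: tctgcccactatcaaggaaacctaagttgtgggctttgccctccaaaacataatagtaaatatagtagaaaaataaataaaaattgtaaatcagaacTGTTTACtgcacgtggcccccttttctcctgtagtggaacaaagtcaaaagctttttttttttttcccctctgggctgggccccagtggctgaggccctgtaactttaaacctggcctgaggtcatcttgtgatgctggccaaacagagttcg
Sema3e: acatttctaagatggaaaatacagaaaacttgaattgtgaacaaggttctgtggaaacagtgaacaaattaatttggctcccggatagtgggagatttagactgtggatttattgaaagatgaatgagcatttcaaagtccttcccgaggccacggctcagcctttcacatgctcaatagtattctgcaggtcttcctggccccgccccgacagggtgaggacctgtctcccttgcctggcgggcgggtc

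The windows differ in base composition, with 52.8% G and C before Clic5, 43.2% before Pdpn and 48% before Sema3e. In all, 5 short motifs were searched on both strands in the 11 windows annotated for the 8 genes. The forkhead letters TGTTTAC were found only before Pdpn, 153 bases before its start, against 3.166% of 32851 promoters of the same length. The GATA letters AGATAA were found only before Lmo7, against 9.988% of all promoters. The TEAD letters GGAATG, the NKX2-1 letters CACTTG and the AP-1 letters TGANTCA were in 0 of the 11 windows, against 12.64%, 11.61% and 6.749% of all promoters. Neither match overlapped another motif. These are matches of letters only, and tags near the 3' end of a transcript do not show which start site was used.

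The surface proteins come first. Ager encodes the receptor for advanced glycation end products, a multiligand receptor carried in the lung mainly by type 1 cells. Its level was 5.67 in the E13.5 library, from 24 reads, 91.5 in that of E15.5, 694 and 868 in the E18.5 libraries, 851 in the P14 library, and 230 and 212 in those of P56. P14 lay inside the range of the E18.5 libraries, and both P56 libraries lay below all 3 of them and above both early libraries. The E18.5 level was 3.53-fold the P56 level (781 ± 123 against 221 ± 12.7, SD, n = 2 each), with a log2 change of -1.81 (SE 0.198, limma adjusted p = 0.00161). P56 held 28.36% of the E18.5 level, the highest share among the 10 genes.

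Pdpn encodes podoplanin, a mucin-like membrane protein of the apical surface of type 1 cells that binds ezrin and moesin. It stood at 8.74 at E13.5, 18.3 at E15.5, 57.4 and 44.8 in the pair from E18.5, 55.0 at P14, and 1.99 and 1.30 in the pair from P56. The P56 levels rested on 7 and 4 reads and were the lowest of all libraries, below those of E13.5. Pdpn was 31.1-fold lower at P56 than at E18.5 (log2 change -4.30, SE 0.319, limma adjusted p = 0.000296). Against the mean of E13.5 and E15.5 by P56 it fell by 2.39 on the log2 scale (limma adjusted p = 0.00142).

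Gprc5a encodes an orphan receptor of the retinoic acid-inducible group that is abundant in lung. Its level was 179 at E13.5 against 439 at E15.5, then 2924 and 3697 for the E18.5 libraries, 1379 for P14, and 662 and 641 for the P56 libraries. E18.5 stood above every other stage, P14 was lower than both E18.5 libraries, and P56 remained above both early libraries. P14 held 41.65% of the E18.5 mean, and this fall was called (log2 change -1.25, SE 0.225, limma adjusted p = 0.0344). The further difference between P14 and P56 was not (log2 change -1.08, SE 0.225, limma adjusted p = 0.106).

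The next genes encode proteins of the membrane and the cortex beneath it. Clic5 encodes a chloride intracellular channel family protein that associates with ezrin and cortical actin. It stood at 0.945 at E13.5, from 4 reads, and at 333 at E15.5, from 927 reads. The E18.5 libraries then held 2745 and 3089, the P14 library 1498, and the P56 libraries 226 and 238. The ratio of E15.5 to E13.5 was 352, with a 95% counting interval of 137 to 1294, the largest of the 10 genes. P14 lay below both E18.5 libraries at 51.38% of their mean, and P56 at 7.958%. The fall from E18.5 to P56 was 12.6-fold (log2 change -3.64, SE 0.177, limma adjusted p = 7.17e-05), and P56 lay below even the E15.5 library.

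Cav1 encodes caveolin-1, the membrane protein that shapes caveolae and is abundant in type 1 and endothelial cells. Its level was 0.945 in the E13.5 library, again from 4 reads, 20.8 in that of E15.5, 181 and 149 in the E18.5 libraries, 77.9 in the P14 library, and 5.98 and 4.53 in those of P56, from 21 and 14 reads. Every stage after E18.5 was lower than the one before, and the P56 libraries lay between those of E13.5 and E15.5. Cav1 was 31.4-fold lower at P56 than at E18.5 (log2 change -4.73, SE 0.284, limma adjusted p = 0.000130). P56 held 3.183% of the E18.5 level, the lowest share of the 10.

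Lmo7 encodes an actin-binding LIM domain protein found at adherens junctions. It stood at 5.91 at E13.5 (25 reads), 81.1 at E15.5, 526 and 543 in the pair from E18.5, 214 at P14, and 88.5 and 84.9 in the pair from P56. The E18.5 libraries differed by less than those of most members, and both P56 libraries lay just above the E15.5 library. The fall from E18.5 to P14 was called (log2 change -1.31, SE 0.233, limma adjusted p = 0.0328), with P14 at 40.12% of E18.5. Between P14 and P56 the log2 change was -1.30 (SE 0.233), which did not pass the threshold (limma adjusted p = 0.0676).

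The signalling proteins are next. Rtkn2 encodes a signalling protein of the rhotekin family. It stood at 13.5 at E13.5 against 7.89 at E15.5, then 130 and 165 for the E18.5 libraries, 162 for P14, and 7.11 and 5.83 for the P56 libraries. The E15.5 level rested on 22 reads and those of P56 on 25 and 18. Rtkn2 was the only member with a lower level at E15.5 than at E13.5, at a ratio of 0.586 (95% counting interval 0.341 to 0.974). P14 was as high as E18.5, and P56 was back below E15.5. The fall from P14 to P56 was 4.45 on the log2 scale (SE 0.327, limma adjusted p = 0.00363), with no called difference between E18.5 and P14 (log2 change 0.14, limma adjusted p = 0.870).

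Akap5 encodes an A-kinase anchoring protein that holds protein kinase A, calcineurin and adenylyl cyclases near membrane receptors. It stood at 9.45 in the E13.5 library, 32.3 in that of E15.5, 180 and 140 in the E18.5 libraries, 114 in the P14 library, and 10.2 and 6.15 in those of P56, the last from 19 reads. P14 was below both E18.5 libraries, and the P56 libraries lay on either side of the E13.5 level. Akap5 was 19.5-fold lower at P56 than at E18.5 (log2 change -4.15, SE 0.305, limma adjusted p = 0.000286).

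Hopx encodes a small homeodomain protein that does not bind DNA itself and acts with other transcription regulators. It stood at 4.49 at E13.5, 37.7 at E15.5, 89.3 and 40.3 in the pair from E18.5, 66.6 at P14, and 6.83 and 14.3 in the pair from P56. The E13.5 level rested on 19 reads and the lower P56 level on 24. The libraries at E18.5, with 232 and 107 reads, differed more than those of any other member, and the lower of them lay close to E15.5. The fall from E18.5 to P56 was 6.15-fold (64.8 ± 34.65 against 10.5 ± 5.25, SD, n = 2 each), with a log2 change of -2.48 (SE 0.464, limma adjusted p = 0.0136). That call was lost without the filter on low values (adjusted p = 0.250) and without limma's robust variance estimate (adjusted p = 0.0772). The rise before birth, 2.07 on the log2 scale (limma adjusted p = 0.0153), was lost in the same way, with adjusted p = 0.197 and 0.0673.

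Sema3e encodes a secreted class 3 semaphorin, a ligand that acts through plexin D1 and is known for guiding vessels and axons. Its level was 84.8 at E13.5 against 110 at E15.5, then 96.3 and 87.4 for the E18.5 libraries, 152 for P14, and 12.2 and 13.6 for the P56 libraries. The 4 fetal libraries lay close together, P14 was above them all, and P56 was far below all. Sema3e was the only member with no called change between the early stages and E18.5 (log2 change -0.08, SE 0.219, limma adjusted p = 0.824). Between E18.5 and P56 it fell 7.11-fold (log2 change -2.74, SE 0.219, limma adjusted p = 0.000390), and against the early stages P56 had a log2 change of -2.81 (limma adjusted p = 0.000113).

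**Figure D1:**
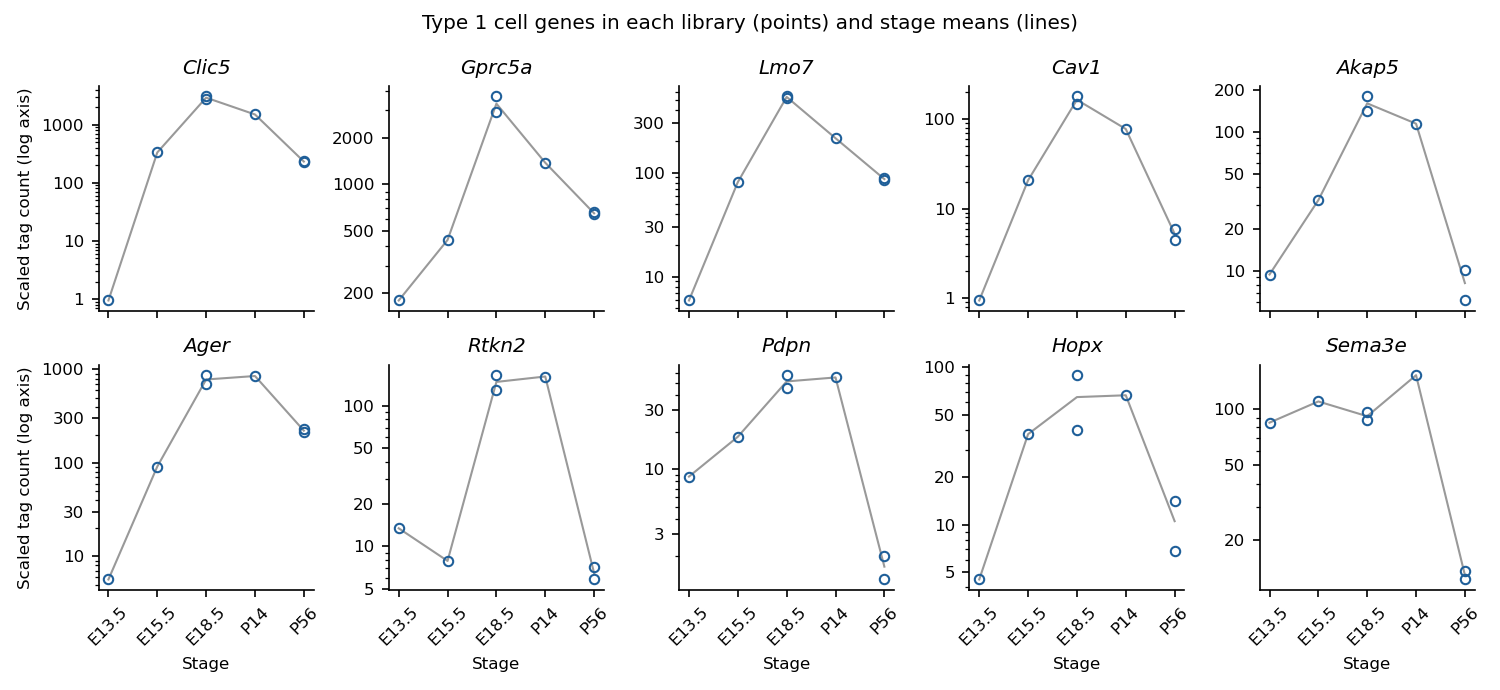
Level of each of the 10 genes (y axis, scaled tag count on a log axis with its own range per gene) at the 5 stages (x axis). Points are libraries and lines join the stage means; every P56 point lies below every E18.5 point of the same gene, and Sema3e alone has no called change before birth.

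The first comparison asks which of these genes had risen by E18.5, shortly before birth. Against the mean of E13.5 and E15.5, 9 of the 10 rose by E18.5 and 0 fell, where 15.8% of all tested genes were called higher and 13.4% lower by limma. The median log2 change of the 10 was 3.63, against 0.03 over all tested genes. edgeR on the recovered reads of all libraries called the same 9 higher, among 2318 of all tested genes. Clic5 rose most (log2 change 6.84, SE 0.177, limma adjusted p = 1.96e-06), followed by Ager (4.97, SE 0.198) and Cav1 (4.67, SE 0.284). Pdpn, with 1.92 (SE 0.319, limma adjusted p = 0.00478), rose least of the 9. With E15.5 alone as the early stage, an alternative chosen after the data had been seen, 7 of the 9 calls remained. Hopx (adjusted p = 0.494) and Pdpn (adjusted p = 0.0609) were the 2 lost. With only the libraries of the stages compared, limma called 0 of the 10 and 0 of all tested genes. Its calls were likewise lost for all tested genes with any 1 library of E18.5 or P56 left out. In those fits all 10 log2 changes kept their sign by limma, and 9 to 10 did by edgeR.

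The early stages hold 1 library each, so E13.5 and E15.5 can be compared only by their reads, with intervals that cover counting error alone. Between them, 9 of the 10 genes were higher at E15.5, with a median ratio of 5.90. Neither this count nor this median was worked out over all tested genes, so they do not set the 10 apart. After Clic5, the ratios of Cav1 (22.0, 95% counting interval 8.15 to 83.5), Ager (16.1, 10.6 to 25.65) and Lmo7 (13.7, 9.06 to 21.7) were the highest. Hopx stood at 8.39 (5.12 to 14.5), Akap5 at 3.42 (2.33 to 5.09), Gprc5a at 2.45 (2.24 to 2.69) and Pdpn at 2.09 (1.34 to 3.29). Sema3e, at 1.30 (1.11 to 1.52), was the nearest to no difference. From E15.5 to E18.5 the ratios ran from 0.834 for Sema3e to 18.7 for Rtkn2, with a median of 7.07. Rtkn2 was thus low at both early stages and took its whole rise after E15.5, while Hopx had made most of its rise by E15.5.

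Between E18.5 and P14 the values of the 10 genes ran from lower to higher, and most did not pass the test. Where P14 lay against the E18.5 libraries was not counted over all tested genes, so that placing alone does not set the 10 apart. Ager, Rtkn2, Pdpn and Hopx stood inside the range of the E18.5 libraries at P14, at 109%, 109.3%, 107.7% and 102.7% of their mean. Sema3e stood above both, at 166% (log2 change 0.73, SE 0.268, limma adjusted p = 0.207). Clic5, Gprc5a, Lmo7, Cav1 and Akap5 stood below both, at 51.38%, 41.65%, 40.12%, 47.16% and 71.45%. Of these, Lmo7 and Gprc5a passed the test, so that 2 of the 10 fell and 0 rose, where 1.24% of all tested genes were called lower and 1.87% higher by limma. The Gprc5a call was lost without the filter on low values (adjusted p = 0.142), and both calls were lost without the robust variance estimate (0.114 for Gprc5a and 0.0848 for Lmo7) and with only the libraries of the stages compared (0.420 for both). Clic5 (log2 change -0.96, limma adjusted p = 0.0673) and Cav1 (-1.07, adjusted p = 0.160) did not pass. edgeR on the recovered reads called Clic5 too (adjusted p = 0.0264), where it called 276 of all tested genes lower. With E18.5 replicate 2 left out, the log2 change of Cav1 by edgeR was -1.29. With any 1 library of E18.5 or P56 left out, limma's calls here were lost for all tested genes, the 10 included.

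**Figure D2:**
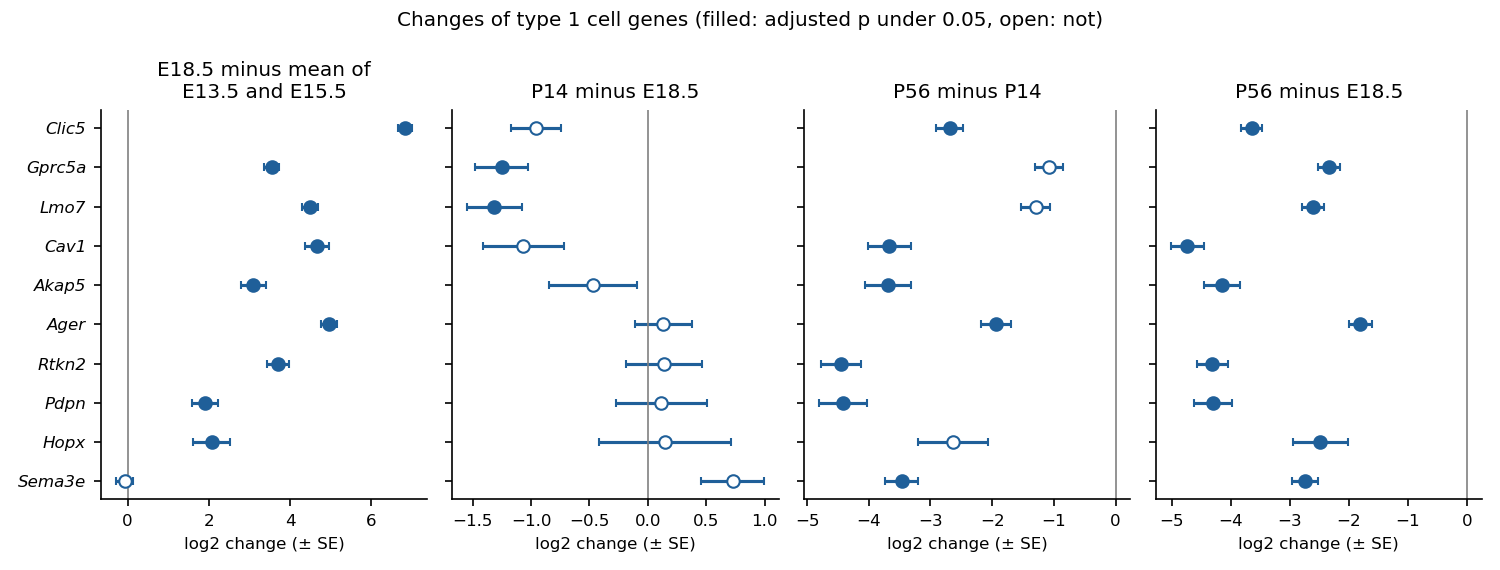
Log2 change (x axis, ± SE from the limma fit) of each of the 10 genes (y axis) in 4 comparisons, with filled points for an adjusted p under 0.05. At P14 against E18.5 only Lmo7 and Gprc5a are filled and Sema3e lies furthest right, and all 10 lie left of 0 at P56 against E18.5.

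The step from P14 to P56 took all 10 genes down in value, with both P56 libraries below the single P14 library. How many of all tested genes did the same was not counted, so this alone does not set the 10 apart. By limma 7 of the 10 fell and 0 rose, where 0.694% of all tested genes were called lower and 0.123% higher. The median log2 change was -3.08 against 0.00 over all tested genes. Rtkn2 (log2 change -4.45) and Pdpn (-4.42) fell furthest, followed by Akap5 (-3.68) and Cav1 (-3.67). Ager fell by 1.94 (SE 0.243, limma adjusted p = 0.0172), the smallest change among the 7. Without the filter on low values that call was lost (adjusted p = 0.0882), as was that of Akap5 (0.109), and Lmo7 was gained (0.0257). Hopx (log2 change -2.63, adjusted p = 0.116), Lmo7 and Gprc5a made up the rest. The P14 library is the only 1 of its stage, so its own error was not measured. Without the robust variance estimate limma called 0 of the 10 and 0 of all tested genes in this step. Its calls were likewise lost for all tested genes with any 1 library of E18.5 or P56 left out. On all libraries edgeR called all 10 lower, among 193 of all tested genes.

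Across the whole span from E18.5 to P56 all 10 genes fell, and in all 10 both P56 libraries lay below both E18.5 libraries. Among all tested genes, limma called 6.15% lower and 8.07% higher, and 25.0% had P56 libraries that all lay below the E18.5 libraries. The median log2 change of the 10 was -3.19, against 0.06 over all genes. The share of the E18.5 level left at P56 ran from 3.183% for Cav1 to 28.36% for Ager, with a median of 11.01%. Pdpn (3.217%), Rtkn2 (4.38%), Akap5 (5.131%) and Clic5 (7.958%) lay below that median with Cav1. Sema3e (14.07%), Lmo7 (16.23%), Hopx (16.26%), Gprc5a (19.68%) and Ager lay above it. With no filter on low values limma called 6 of the 10, losing Ager, Akap5, Gprc5a and Hopx. With 1 library left out, limma had 1 residual degree of freedom and its calls were lost for all tested genes. All 10 log2 changes kept their sign in those fits, by limma and by edgeR. The comparisons from P14 to P56 and from E18.5 to P56 share the P56 libraries, so the fall in both is not independent.

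**Figure D3:**
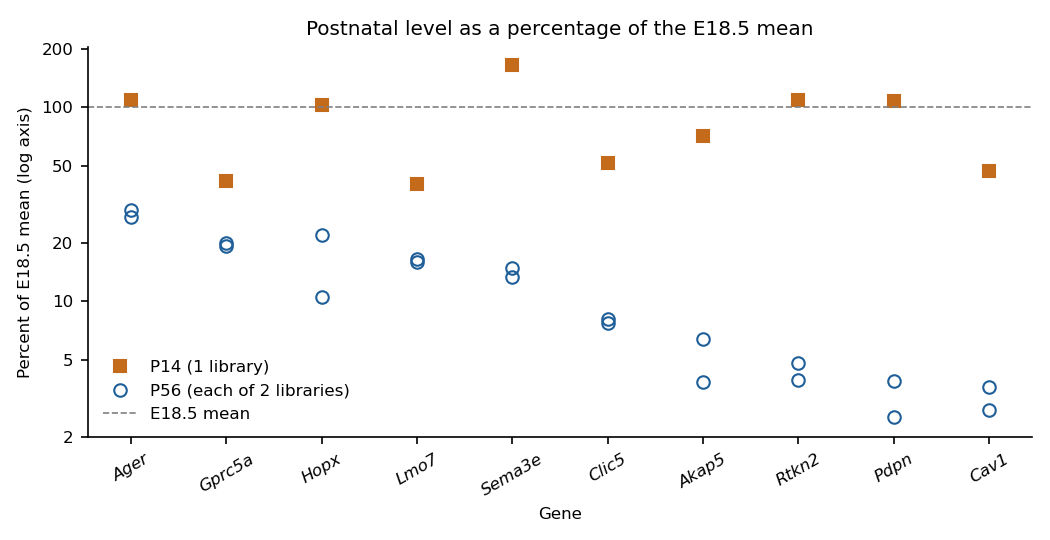
Level after birth as a percentage of the E18.5 mean (y axis, log axis) for each of the 10 genes (x axis), with P14 as squares, the 2 P56 libraries as circles and the E18.5 mean as the dashed line. At P14 the genes lie between 40.12% and 166%, and at P56 their means lie between 3.183% and 28.36%.

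The adult level was then set against the early lung. Against the mean of E13.5 and E15.5, 4 genes were higher at P56 by limma and 3 were lower, where 19.3% of all tested genes were called higher and 15.0% lower. Clic5 (log2 change 3.19, adjusted p = 2.89e-05), Ager (3.16, adjusted p = 4.53e-05), Lmo7 (1.88, adjusted p = 0.000373) and Gprc5a (1.21, adjusted p = 0.00251) were higher. Sema3e, Pdpn and Akap5 (log2 change -1.06, adjusted p = 0.0332) were lower. Cav1 (-0.07), Hopx (-0.42) and Rtkn2 (-0.61) did not pass. With E15.5 alone as the early stage, 4 of the 7 calls remained: Ager higher (1.27, adjusted p = 0.0128), and Pdpn (-2.88, adjusted p = 0.00310), Akap5 (-1.89, adjusted p = 0.0140) and Sema3e (-3.00, adjusted p = 0.000499) lower. The calls of Clic5, Lmo7 and Gprc5a were lost, with values of -0.52 (adjusted p = 0.143), 0.09 and 0.57, and Cav1 was called lower (-1.81, adjusted p = 0.0127). The Akap5 call was also lost without the filter on low values (adjusted p = 0.181), without the robust variance estimate (0.0716), with only the libraries of the stages compared (0.131), without E18.5 replicate 1 (0.121) or 2 (0.119), and by edgeR without P56 replicate 2 (0.153). Without P56 replicate 1 or without P56 replicate 2, limma's calls in both directions were lost for all tested genes, the 10 included. In single libraries, 7 of the 10 genes lay lower at both P56 libraries than at E15.5, and Ager, Lmo7 and Gprc5a lay higher. Some of these differences were small. Rtkn2 stood at 7.89 at E15.5 against 7.11 and 5.83 at P56, and Lmo7 at 81.1 against 88.5 and 84.9. The same count was not made over all tested genes.

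The unequal fall also shows in the ratio of members within a library, which does not compare their levels but follows how they moved against each other. Per tag of Ager there were 3.96 and 3.56 tags of Clic5 in the E18.5 libraries, 1.76 at P14, and 0.983 and 1.12 in the P56 libraries. For Rtkn2 the ratio was 0.188 and 0.190 in the E18.5 libraries, 0.190 at P14, and 0.0309 and 0.0274 in the P56 libraries. Clic5 therefore lost ground against Ager by P14 and Rtkn2 only after it. Across the 45 pairs of members, Pearson's r of the log2 values over the 7 libraries ran from 0.051 to 0.986 with a median of 0.812. The 9 pairs with Sema3e had a median of 0.541, and the 36 others one of 0.834. Sema3e thus followed the course of the other members least, with its lowest r against Ager (0.051) and Clic5 (0.164) and its highest against Pdpn (0.901). The points of these correlations are the same 7 libraries of 5 stages, so they describe a shared course and are given with no test.

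Other markers of type 1 cells, 22 genes listed apart from the 10, were less uniform. From the early stages to E18.5, 21 of them rose and 1, Igfbp2, fell. Between E18.5 and P56, 17 fell and 0 rose, where limma called 6.15% of all tested genes lower and 8.07% higher. The same shares stand beside the counts of the lists below for that span. The median log2 change over that span was -1.92, and 11 of the 22 fell between P14 and P56. The 4 with the smallest p from E18.5 to P56 were Scnn1g, Cryab, Agrn and Krt7. Scnn1g, the gamma subunit of the epithelial sodium channel, stood at 87.4 and 101 in the E18.5 libraries, 85.0 at P14, and 3.42 and 2.27 in the P56 libraries (log2 change -4.65, limma adjusted p = 0.000187). It thus held its level until P14, like Rtkn2 and Pdpn. Cryab, a small heat shock protein, went from 3602 and 3698 through 2275 to 727 and 762 (log2 change -2.29, adjusted p = 0.000249). Agrn, the basement membrane proteoglycan agrin, went from 262 and 222 through 106 to 21.6 and 15.2 (log2 change -3.66, adjusted p = 0.000221). Krt7, a simple epithelial keratin that is not restricted to type 1 cells, went from 11320 and 15790 through 7596 to 2129 and 1728 (log2 change -2.80, adjusted p = 0.000317).

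Aqp5 and Cldn18, chosen for mention after their values were seen, rose before birth (log2 change 8.11 and 1.64) and had no called change from E18.5 to P56. Aqp5, the water channel of the type 1 cell surface, stood at 1931 and 2181 in the E18.5 libraries, 3140 at P14, and 2545 and 3000 in the P56 libraries (log2 change 0.43, limma adjusted p = 0.172). Cldn18, a tight junction claudin of alveolar epithelium, stood at 11890 and 13490, then 17330, then 8555 and 9230 (log2 change -0.51, adjusted p = 0.0734). Both genes are also expressed outside type 1 cells, Aqp5 in airway glands and Cldn18 in type 2 cells.

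The proteins that build caveolae with Cav1 were followed as a list of 7 tested genes. Of these, 6 rose from the early stages to E18.5, and from E18.5 to P56 5 fell and 0 rose, with a median log2 change of -1.77. The cavins coat the caveola. Prkcdbp (Cavin3) fell furthest, from 774 and 842 at E18.5 to 249.2 at P14 and to 54.1 and 43.1 at P56 (log2 change -4.04, limma adjusted p = 8e-05). Sdpr (Cavin2) went from 293 and 359 through 242 to 19.1 and 24.6 (log2 change -3.84, adjusted p = 0.000140). Ptrf (Cavin1) went from 479 and 454 through 275 to 86.5 and 92.6 (log2 change -2.37, adjusted p = 0.000366). Ehd2, the ATPase at the caveola neck, fell least of these 4, by 1.77 on the log2 scale (adjusted p = 0.00164), and stood at 370 at P14 between its E18.5 levels of 339 and 402. Prkcdbp was the only 1 of the 7 that had fallen by P14 (adjusted p = 0.0202).

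Genes that work with the other members at the cortex moved in both directions. Of 9 tested partners of Pdpn and Clic5, 3 rose and 2 fell from E18.5 to P56, with a median log2 change of 0.57. Msn, which encodes moesin, a linker of membrane and actin, fell from 373 and 463 to 72.9 and 83.9 (log2 change -2.39, limma adjusted p = 0.000575), and Cd9, a tetraspanin, fell by 1.25 (adjusted p = 0.0169). Cd44, a hyaluronan receptor that binds podoplanin, rose from 5.78 and 3.77 to 43.5 and 43.4 (log2 change 2.97, adjusted p = 0.00249). Slc9a3r1, a scaffold that binds ezrin, rose (log2 change 0.89, adjusted p = 0.0277). Among the other Clic genes, 1 of 4 fell, Clic3, from 1956 and 1666 to 590 and 701 (log2 change -1.49, adjusted p = 0.00302).

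Relatives and partners of Rtkn2, Lmo7 and Gprc5a were listed in the same way. Of 8 tested partners of Rtkn2 and Lmo7, Pdlim1 and Rtkn rose from E18.5 to P56 and the other 6 did not pass, with a median log2 change of -0.26 over the 8. Pdlim1, a LIM protein of actin fibres, rose from 129 and 135 through 388 to 641 and 877 (log2 change 2.50, adjusted p = 0.000473). Rtkn, the founding rhotekin and closest relative of Rtkn2, rose by 0.92 (adjusted p = 0.0390), against the fall of Rtkn2. Gprc5b, a relative of Gprc5a, likewise rose by 1.89 (adjusted p = 0.0164), as 1 of 2 tested members of that family.

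Of the class 3 semaphorins and their receptors, 10 were tested, and from E18.5 to P56 4 fell and 1 rose (median log2 change -0.34). Sema3a fell with Sema3e, from 44.3 and 35.8 at E18.5 to 20.6 at P14 and to 0.569 and 1.30 at P56 (log2 change -4.43, limma adjusted p = 0.000530). Nrp2, a semaphorin coreceptor, fell from 64.3 and 57.3 through 22.0 to 4.27 and 6.15 (log2 change -3.33, adjusted p = 0.000624), and Sema3f by 1.58 (adjusted p = 0.0286). Nrp1, the coreceptor shared with VEGF, rose from 108 and 112 to 346 at P14 and 342 and 431 at P56 (log2 change 1.80, adjusted p = 0.00188). Plxnd1, the receptor of Sema3e, stood at 4.24 and 3.39 in the E18.5 libraries, 9.11 and 11.3 in those of P56, and did not pass (log2 change 1.22, adjusted p = 0.0519).

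Of 12 tested regulators of type 1 fate, 3 fell from E18.5 to P56 and 0 rose, with a median log2 change of -0.67. The list holds 6 genes of the Hippo pathway, of which Wwtr1, Tead1 and Tead4 fell and Yap1, Tead2 and Tead3 did not pass. Wwtr1, which encodes the coactivator TAZ, fell from 85.1 and 90.4 through 42.4 to 17.9 and 17.8 (log2 change -2.23, limma adjusted p = 0.00142). Tead1 (log2 change -1.59, adjusted p = 0.0172) and Tead4 (-2.01, adjusted p = 0.0153), DNA-binding partners of TAZ, fell too. Yap1, the paralogue of TAZ, stood at 19.6 and 13.2 in the E18.5 libraries, 22.5 and 28.8 in those of P56, and did not pass (log2 change 0.63, adjusted p = 0.229). Nkx2-1, the lung epithelial transcription factor, had a log2 change of -0.70 (adjusted p = 0.0599). The 3 tested ligands of the Ager receptor, Hmgb1, S100a6 and S100a11, had log2 changes between -0.81 and 1.004 from E18.5 to P56 and did not pass limma's test.

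**Figure D4:**
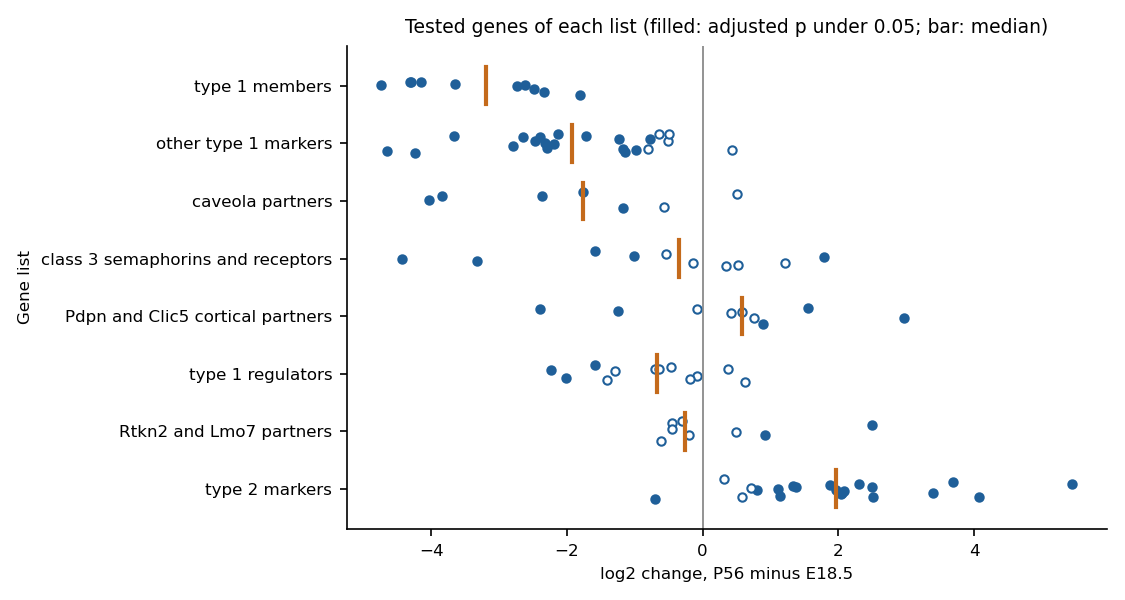
Log2 change from E18.5 to P56 (x axis) of each tested gene in 8 gene lists (y axis), filled where the adjusted p was under 0.05, with a bar at each list's median. The 10 genes have a median of -3.19, the other type 1 markers -1.92 and the type 2 markers 1.97.

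Markers of other cell types moved over the same stages. The 21 type 2 markers, summed, stood at 421 in the E13.5 library, 3018 in that of E15.5, 16940 and 17200 in the E18.5 libraries, 57560 in the P14 library, and 75560 and 83910 in those of P56. Of these genes 17 rose and 1 fell from E18.5 to P56, among them Sftpc, surfactant protein C, from 3953 and 3365 to 19990 and 21450. The 10 type 1 genes, summed, stood at 313, 1171, 7622 and 8823, 4570, and 1252 and 1221 at the same stages. Both sums were thus higher at E18.5 than at the early stages, and after E18.5 they went in opposite directions. Most of the type 1 sum at E18.5 was Gprc5a (2924 and 3697) and Clic5 (2745 and 3089). By single genes, 5 of the 10 had their highest stage mean at P14. Airway secretory and ciliated markers also rose over that span in 5 of 8 tested genes, with a median log2 change of 1.44, and none fell. The part of these shifts in the fall of single genes was not tested.

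Cav1, Pdpn and Hopx are also expressed outside the epithelium, so markers of those cells were looked at beside them. Endothelial markers, 16 genes, summed to 102 and 117 at E18.5 and to 207 and 253 at P56, higher where Cav1 was lower. Most of that sum was Esam, at 92.8 and 101 and then 188 and 241, while Pecam1 had 0 to 4 reads per library and Vwf 0 to 1. Mesothelial and lymphatic markers summed to 554 and 737 in the E18.5 libraries, 37.7 at P14, and 27.0 and 5.18 in the P56 libraries. At E18.5 nearly all of that was Msln, mesothelin, at 549 and 733. It fell to 3.70 and 1.30 at P56 (log2 change -7.60, limma adjusted p = 9.1e-05). Upk1b stood above Msln at P14 (14.03) and in both P56 libraries (19.35 and 3.563). Wt1, which defines mesothelium, had 0 reads at E18.5, P14 and P56, and Upk3b 0 to 1. At P14 Msln had fallen to 11.8 while Pdpn stood at 55.0. Mesenchymal markers summed to 2626 at E13.5, 1403 at E15.5, 286 and 314 in the pair from E18.5, 278 at P14, and 143 and 97.5 in the pair from P56. Vim alone took 2564 of the E13.5 sum. From E18.5 to P56, 7 of 10 tested mesenchymal markers fell and 1 rose, with a median log2 change of -1.88. Most thus moved in the same direction as the 10 genes. The 1 that rose was Dcn, chosen for mention after its values were seen. It went from 6.16 and 0.377 (16 reads and 1) to 70.9 and 44.05 (log2 change 4.18, limma adjusted p = 0.00921). Eln, which encodes elastin, went from 43.9 and 55.8 at E18.5 through 53.9 at P14 to 0.854 and 0.972 at P56 (log2 change -4.72, limma adjusted p = 0.000252). Their part in the values of the 10 genes was not tested.

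**Figure D5:**
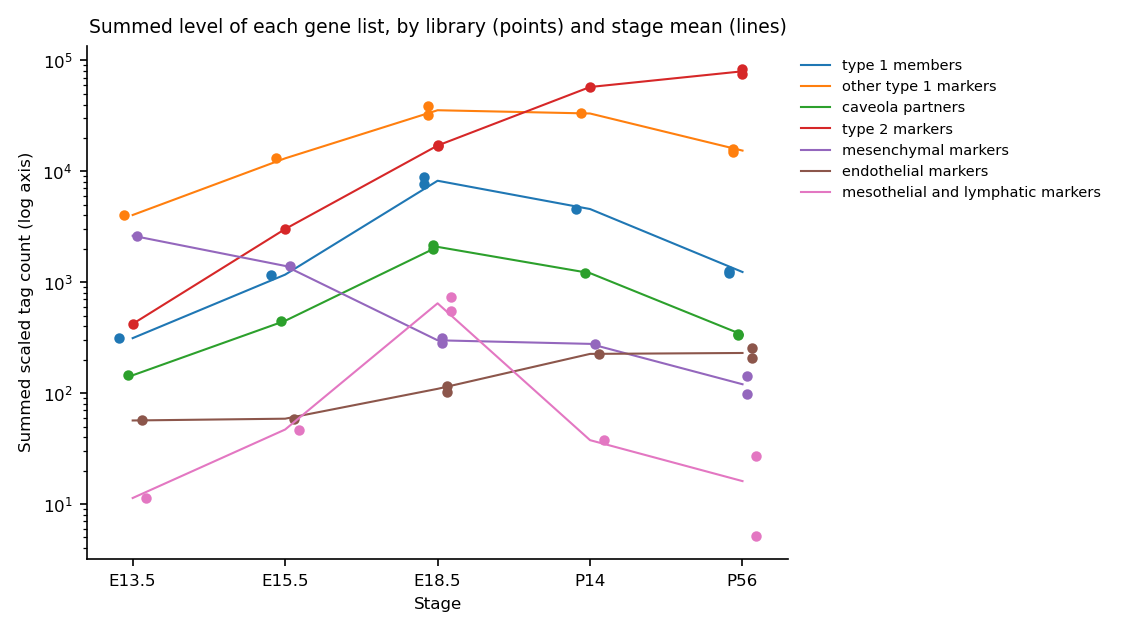
Summed scaled tag count of each gene list (y axis, log axis) at the 5 stages (x axis), with libraries as points and stage means as lines. The 10 genes sum to 8823 at most at E18.5 and to 1252 at most at P56, while the type 2 markers keep rising to 83910.

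The genes with the most similar course were looked up among 2029 genes with a highest stage mean of at least 100, by Pearson's r of log2 values over the 7 libraries. Ager was most like Utrn (0.994), Emp2 (0.992) and Ltbp3 (0.991). Clic5 was most like Cryab (0.996), Elf5 (0.995) and Serinc5 (0.989), and Lmo7 shared Serinc5 (0.995) and Cryab (0.992) with it, beside Fuca2 (0.993). Gprc5a was most like Myo1c (0.993), Mprip (0.991) and Tmem63b (0.991). Cav1 was most like Tspan8 (0.992), Ndst1 (0.982) and Qk (0.978). Akap5 and Rtkn2 shared Lrrc1 (0.988 and 0.967). Akap5 also had Fbln5 (0.986) and Aqp1 (0.985), and Rtkn2 had Mal2 (0.991) and Col4a1 (0.962). Pdpn was most like Tet3 (0.979), Fbln5 (0.963) and Csnk1d (0.958). Sema3e was most like Banp (0.979) and Pcbp2 (0.945). Hopx was most like Daam2 (0.946), Dag1 (0.917) and Mpp1 (0.917), and its nearest gene had a lower r than the nearest gene of each other member. Pearson's r follows the shape of a course and not its size. From E18.5 to P56 the mean of Tet3 went only from 250.5 to 152.6 and that of Banp from 224.5 to 127.3. Pdpn fell 31.1-fold and Sema3e 7.11-fold over that span. Fbln5, also like Pdpn, went from 2061 to 91.68. The r values describe the 7 libraries of 5 stages only and are given with no test.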

How the data were processed

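The deposited signal of each gene is a tag count that the authors scaled, with 1 factor for a whole library. This was read from the values, since each became a whole number of reads, within 0.01 for 100% of genes, once divided by the library's smallest step. The tools and build were Bowtie2 2.2.5, R 3.4.0 and mm10, per the submitters' processing notes. The counting program, its annotation, its filters and the scaling method are not given in the sources used here.

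Genes were filtered with filterByExpr by stage on the recovered reads and tested with limma-trend with robust variance estimates (limma 3.58.1, R 4.3.3) on log2(value + 1), in a fit that held all 7 libraries and 1 coefficient per stage. edgeR 4.0.16 and DESeq2 1.42.0 on the recovered reads, other scalings, other pseudocounts, no filter, a replicate block and left-out libraries were alternatives. From E18.5 to P56 edgeR called 1074 genes higher and 1023 lower, the 10 among the latter. Scripts were tested on simulated data. Between E13.5 and E15.5, with 1 library each, ratios carry exact 95% counting intervals and no test. Promoters and positions come from RefSeq (GRCm38.p6) and GENCODE vM21.

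The 10 genes and the 17 other gene lists were chosen with earlier results of these data known. All 10 are named, with up to 4 tested genes of each list with the smallest limma p in P56 against E18.5, and the 3 genes most alike in course to each. Not every gene this rule names is described, and the list of Akap5 partners is not reported here. Other genes are marked as chosen after their values were seen, or are named as the receptor or paralogue of one described or as a marker that defines a cell type.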

Additional observations from a re-analysis of the deposited data

How the results depend on the processing

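The direction of all 10 genes from E18.5 to P56 held in every alternative tried. Scaling by total reads moved the median of all genes by -0.133 from the early stages to E18.5 and by -0.141 to P56, and other scalings by less. Without the filter on low values limma called 1 gene lower by P14 and 6 lower from E18.5 to P56. Without the robust variance estimate it called 0 lower by P14 (4 at an unadjusted p under 0.05) and 0 lower from P14 to P56 (10 unadjusted). With only the libraries of the stages compared it called 0 higher by E18.5 (8 unadjusted), 0 lower by P14 (4) and 0 lower from P14 to P56 (10). With the replicate block, which changed limma's calls to 0 lower by P14 (4 unadjusted) and 0 from P14 to P56 (10), 8 genes were called higher by E18.5 and 9 lower from E18.5 to P56. Same-numbered E18.5 and P56 libraries did not deviate together (r = -0.037 over 6807 genes). This rests on a single difference within each stage, so it cannot show whether the numbers pair the libraries. With E15.5 alone as the early stage 1 gene was called higher at P56, and Clic5 turned to -0.52. Leaving out 1 library at a time leaves 1 residual degree of freedom. Limma's calls by E18.5, by P14, from P14 to P56 and from E18.5 to P56 were then lost for all tested genes. Against the early stages at P56 they were lost for all tested genes without P56 replicate 1 or 2. Without E18.5 replicate 1 or 2, only the call of Akap5 was lost among the 10. The unadjusted counts above were not made over all tested genes. edgeR with 1 library left out kept the sign of all 10 genes from P14 to P56 and from E18.5 to P56. It kept the sign of 9 to 10 by E18.5 and of 8 to 9 by P14. The edgeR fits with left-out libraries and the use of E15.5 alone were chosen after seeing the data. With the replicate block the adjusted p for Gprc5a and Lmo7 at P14 was 0.200 and 0.184. Depth limits the levels with 25 reads or fewer. Among the 10 genes these are Clic5, Cav1, Hopx, Ager and Lmo7 at E13.5 and Rtkn2 at E15.5. At P56 they are Pdpn, Cav1 and Rtkn2, with Hopx in replicate 1 and Akap5 in replicate 2. In the other lists they include Scnn1g (12 and 7 reads), Msln (13 and 4) and Eln (3 in each library) at P56. Cd44 at E18.5, with 15 and 10 reads, is another.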
